A study of Mus musculus with 2 samples.

Results

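The genes described are 45 genes of the unfolded protein response and of protein folding in the endoplasmic reticulum (ER), of 22367 protein-coding genes in all. They were chosen by name from a list of ER stress sensors, transcription factors, chaperones and ER degradation genes, and all 45 were found in the GENCODE M1 annotation of the mm9 mouse genome. Where 3HA-Rfx6 peaks lay around them was asked. Min6b1 cells, a mouse insulin-secreting β cell line, were transfected with 24 µg of a CMV-promoter plasmid encoding Rfx6 with an HA tag, an epitope of 3 copies, and collected 2 days later. An anti-HA antibody precipitated the tagged protein with its DNA. Min6b1 cells without the tagged protein, per their cell type label, were the control, although the growth text shared by both samples names the plasmid for each. There was 1 library of each, so no value below has a replicate error, and the Rfx6 bound here is the overexpressed tagged protein. The labels name no treatment that induces ER stress, and RNA levels of the genes were not analysed here.

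The unfolded protein response lets a cell that makes much secreted protein match its folding capacity to the load. Unfolded protein in the ER activates the sensors IRE1, PERK and ATF6, which splice Xbp1 mRNA, reduce translation through eIF2α and release a transcription factor from the membrane, respectively. Their targets encode chaperones, oxidoreductases that form disulphide bonds, and the machinery that returns misfolded protein to the cytosol for degradation. Because a β cell synthesises large amounts of proinsulin, it depends on this response, and loss of PERK (Eif2ak3) or of Wfs1 causes diabetes in humans. Rfx proteins recognise the X-box, a pair of inverted half-sites. Xbp1 is also named after an X-box, but the element through which it acts in ER stress, described below, is a different sequence.

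The peak list holds 23308 peaks. Each has a number of 3HA-Rfx6 reads, a fold enrichment over a background set by MACS, and an FDR in percent that MACS derives by exchanging both libraries. The median peak held 73 reads (24 to 3489) and was enriched 8.54-fold. A lower FDR did not mean more reads in this list. The median FDR was 3.06% over all peaks. It was 3.33% over the peaks within 1 kb of any protein-coding start, which held a median of 82 reads. After removal of reads at the same position, 33949757 of 49443917 reads of the 3HA-Rfx6 library remained (68.7%). Of the control, 3567375 of 16911298 remained (21.1%). The control was thus the shallower library, and how far each fold enrichment rests on it was not examined. A peak was placed by its summit, its position of highest signal. The 95% Wilson intervals given with shares cover counting error alone, and genes of a single library are not replicates.

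Of the 14 summits within 1 kb of the starts of these ER genes, 2 carried a full X-box (interval 4.01 to 39.9%). Of all 4151 peaks within 1 kb of a protein-coding start, 5.78% did, a share inside that interval. The 2 peaks held fewer reads than the median peak, 53 at Dnajc10 and 38 at Derl1 against 73. Their sequences are shown because they place the recognition sequence of the Rfx family near the starts of ER folding and degradation genes. A half-site was GGCAAC or GGTAAC, and the same with A as the first base in place of G. The full X-box searched for was GTNACC or GTNGCC, then 0 to 3 bases, then a half-site, on both strands. Each sequence is read on the strand of the gene from mm9, and capitals mark the X-box. At Dnajc10, which encodes an ER disulphide reductase, the stretch chr2:80155570-80155622 ends at the base before the gene start, and the summit lay inside the X-box. At Derl1, which encodes a channel protein of ER-associated degradation, the stretch is chr15:57724163-57724217, and the X-box was 4 bp from the summit.
Dnajc10: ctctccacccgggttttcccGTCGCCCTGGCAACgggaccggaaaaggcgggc
Derl1: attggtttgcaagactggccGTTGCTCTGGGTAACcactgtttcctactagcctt

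Of the 45 genes, 14 had a summit within 1 kb of the start (31.1%, interval 19.5 to 45.7%), against 20.1% of all protein-coding genes. Nearly all of the 45 have CpG-rich promoters (43 of 45, against 44.2% of all genes), defined as a GC content of at least 50% and an observed over expected CpG ratio of at least 0.6 in the 1 kb centred on the start. Of the 9882 CpG-rich genes, 33.8% had a summit within 1 kb, and of the 43 CpG-rich members 13 had one (30.2%, interval 18.6 to 45.1%). At the rates of their own promoter class, 14.7 of the 45 would have had a summit, so the members' share was not above that of genes with the same kind of promoter. Gene length made less difference. The median length was 15.3 kb for the members and 15.4 kb for all genes, and 9.19 of the 45 would have had a summit at the rates of their length classes. The comparison with CpG-rich genes alone was added after the data had been seen.

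Within 10 kb of the start, 18 of the 45 had a summit (40.0%, interval 27.0 to 54.5%), against 35.7% of all genes and 49.1% of CpG-rich genes. A summit in the gene or within 50 kb of either end was present for 36 of the 45 (80%, interval 66.2 to 89.1%), against 67.8% of all genes and 83.5% of CpG-rich genes. Each of the 3 member shares was above the share of all genes and below that of CpG-rich genes, and each member interval contained both the share of all genes and that of CpG-rich genes. No test was run on these shares. There were 124 peaks within 50 kb of a member, of which 104 had their summit over 10 kb from its start. For 82 of the 124 (66.1%) the nearest protein-coding start belonged to another gene, and in 20 of these that start was within 1 kb. Most of the distant peaks therefore cannot be assigned to the ER gene. This is not particular to these genes. Each peak has 1 nearest start, whereas the 23308 peaks made 54048 such pairs over all genes, so most of those pairs are also nearest to another gene. The exact share over all genes was not counted.

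**Figure D1:**
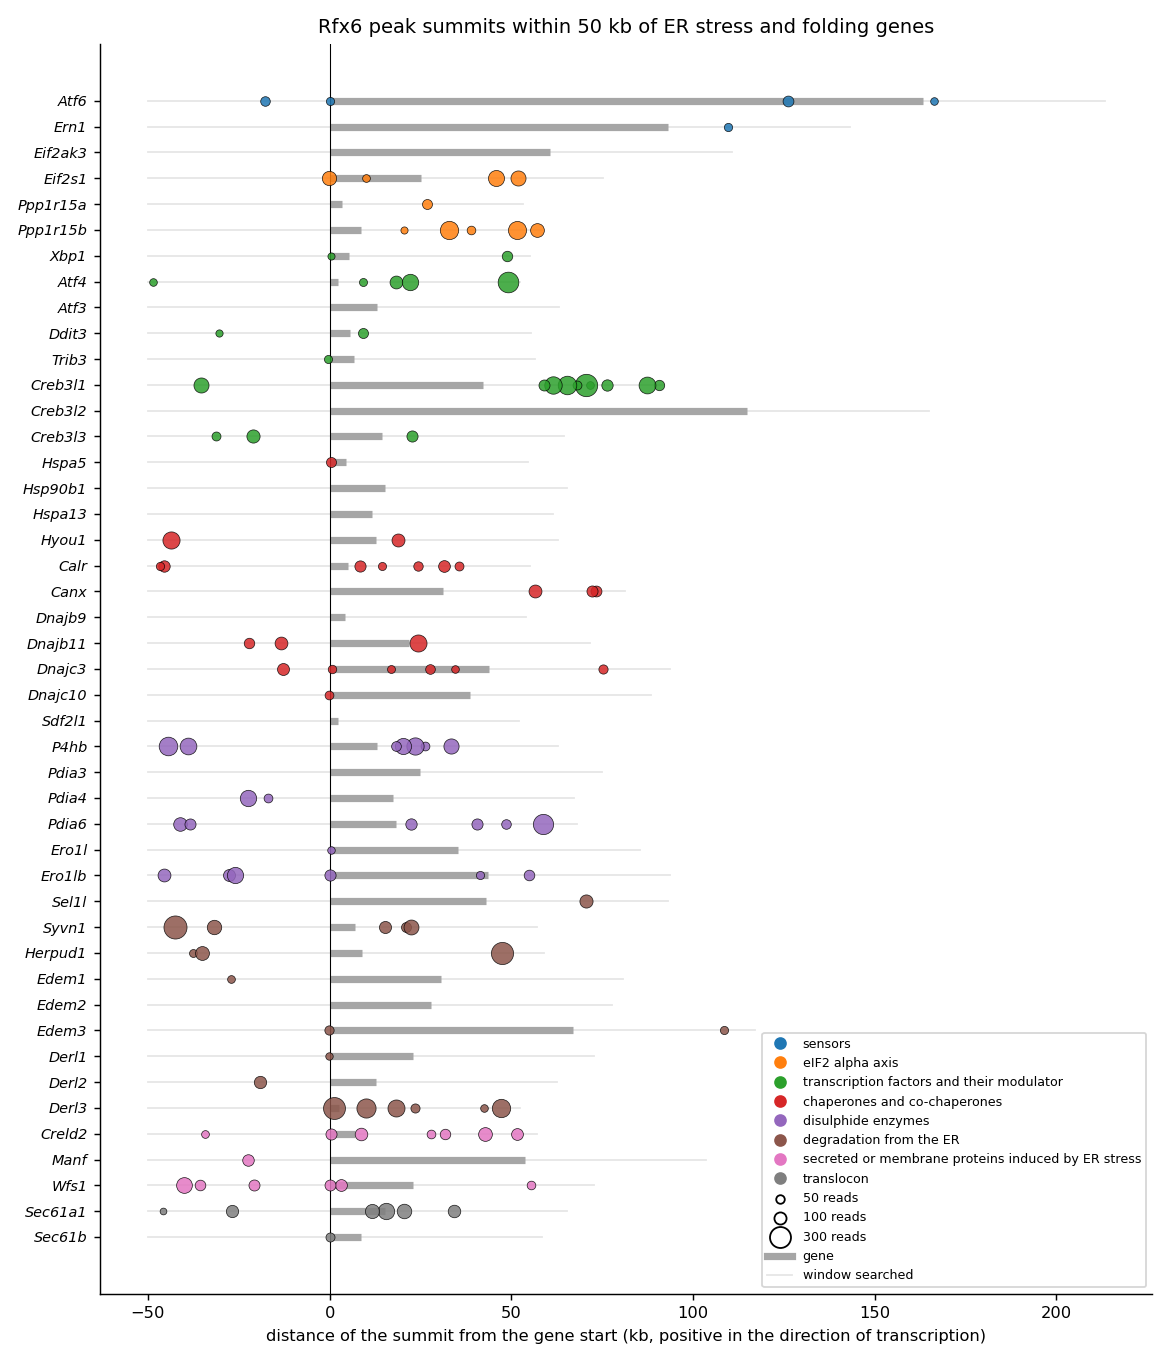
Each row is one of the 45 genes, grouped by role, and each point is a peak summit at its distance in kb from the gene start, with an area proportional to its reads; thick grey bars are genes and thin lines the window searched. The 14 peaks with a summit within 1 kb of a start held 35 to 140 reads, and 9 rows have no summit.

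**Figure D2:**
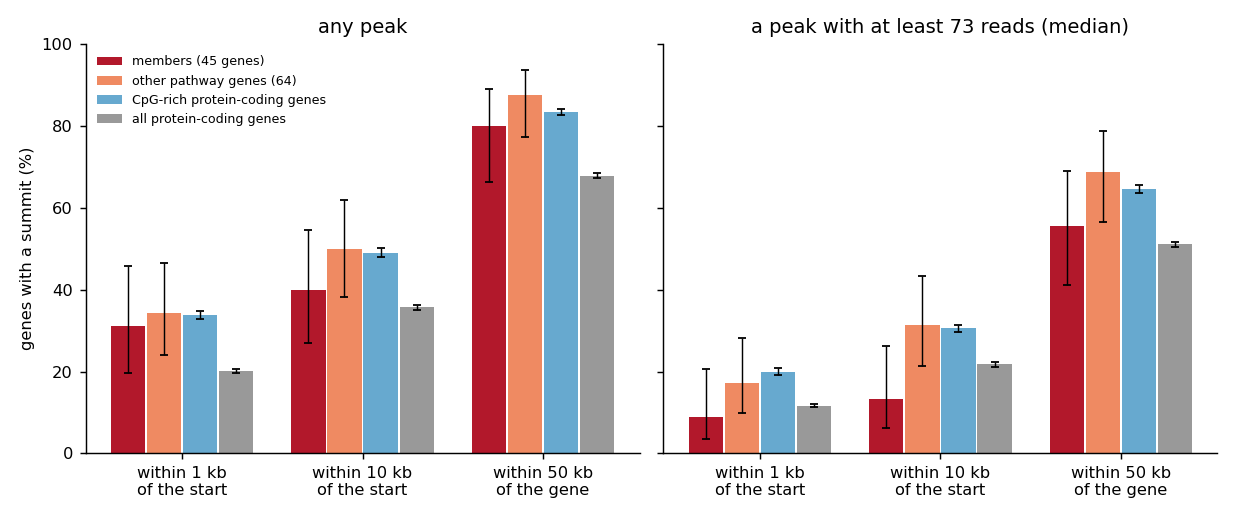
Percent of genes with a summit within 1 kb or 10 kb of the start or within 50 kb of the gene, for the 45 members, 64 other pathway genes, CpG-rich genes and all protein-coding genes, counting every peak (left) or only peaks with at least the median of 73 reads (right); error bars are 95% Wilson intervals. Members are near CpG-rich genes on the left, and on the right they are at 8.89% within 1 kb against 19.99% for CpG-rich genes, a share that the member interval contains. Within 10 kb on the right, members are at 13.3% against 30.5% for CpG-rich genes, a share above the member interval.

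The promoter peaks of these genes held few reads. The highest promoter peak had a median of 54.5 reads over the 14 members, against 82.5 over the 4498 genes with a summit within 1 kb. Of the 14 peaks, 10 held fewer than the 73 reads of the median peak of the whole list. The highest promoter peak had at least 73 reads in 28.6% of the 14 members. The same held for 58.2% of the 4498 genes and 59.2% of the 3338 CpG-rich genes with such a summit. When only peaks with at least 73 reads were counted, 4 of the 45 had a summit within 1 kb (8.89%, interval 3.51 to 20.7%), against 11.7% of all genes and 19.99% of CpG-rich genes. The direction relative to all genes thus changed with the peak set, but the interval on these 4 genes contained both shares. Within 10 kb of the start, 6 of the 45 had a peak with at least 73 reads (13.3%, interval 6.26 to 26.2%). The shares were 21.7% of all genes and 30.5% of CpG-rich genes. That interval contained the share of all genes but not that of CpG-rich genes, and no test was run. Within 50 kb of the gene, where most of the peaks are nearer to other genes, the median of the highest peak was 116 reads both for the members and for all genes.

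**Figure D3:**
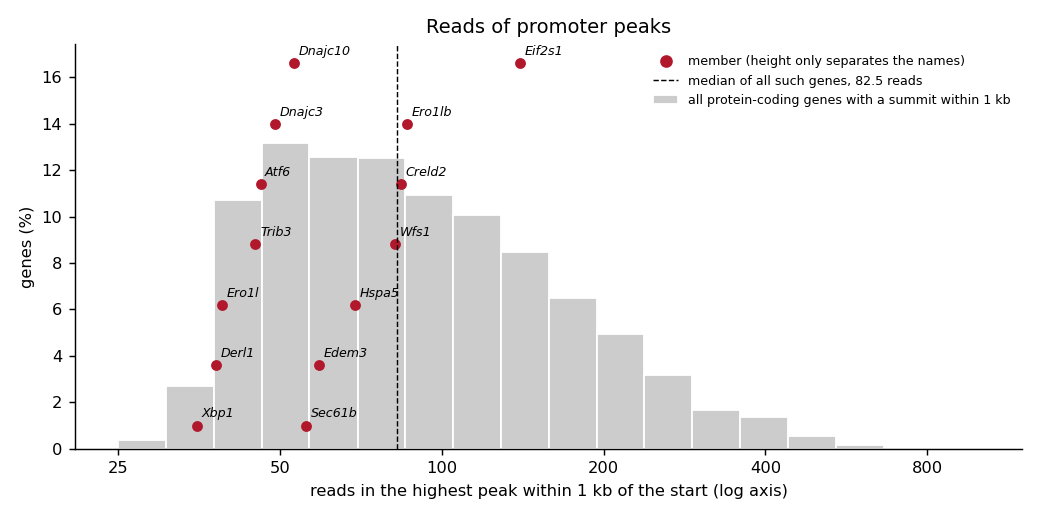
Reads in the highest peak within 1 kb of the start, on a log axis, as a histogram over all protein-coding genes with such a peak (grey, percent of 4498 genes) with the 14 members as named points whose height has no meaning. The dashed line is the median of all such genes (82.5 reads), and 11 of the 14 members lie below it.

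Among the sensors, a summit within 1 kb was found at 1 of 3. Atf6 (ENSMUSG00000026663.5), the membrane-bound transcription factor, had a peak at chr1:172797233-172798333 with 46 reads and a fold enrichment of 7.41, and its summit was in a coding exon 103 bp after the start. A peak of 80 reads (11.9-fold) lay in an intron 126 kb into this gene. The other 2 peaks at Atf6 were 17.8 kb upstream (63 reads, 8.47-fold), 4 bp from the start of Dusp12, and 166 kb after the start (40 reads, 5.88-fold). Ern1, which encodes IRE1, had 1 summit in reach, 16.5 kb beyond the end of the gene, with 47 reads and 6.29-fold enrichment. Eif2ak3 had 0 within 50 kb, and its nearest summit, enriched 12.3-fold, was 239 kb from the gene.

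Of the genes on the eIF2α axis, Eif2s1 (ENSMUSG00000021116.9) had the promoter peak with the most reads of all 45. This gene encodes the eIF2α subunit itself, which PERK phosphorylates. The peak at chr12:79961757-79963251 held 140 reads, a 17.2-fold enrichment, at an FDR of 3.36%, and 17.5% of all peaks held at least as many reads. Its summit was 229 bp upstream of Eif2s1 but 48 bp from the start of Atp6v1d, which is transcribed in the opposite direction and encodes a subunit of the vacuolar proton pump. The peak is thus shared by both genes, and with each peak given only to the nearest start, Eif2s1 lost its promoter peak. The phosphatase subunits Ppp1r15a and Ppp1r15b, which reverse the phosphorylation, had their nearest summits 26.8 kb and 20.4 kb after the start. The highest of 5 peaks at Ppp1r15b, 32.9 kb after its start, held 229 reads with a fold enrichment of 29.7.

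Of the 8 transcription factor genes, counting their modulator Trib3, Xbp1 and Trib3 had a promoter summit. At Xbp1 (ENSMUSG00000020484.11) the peak chr11:5420564-5421373 was weak, with 35 reads and a fold enrichment of 4.24, and 98.3% of all peaks held at least as many reads. Its summit was in a coding exon, 487 bp after the start. At Trib3, a pseudokinase gene induced by ER stress, the summit was 442 bp upstream, with 45 reads and a fold enrichment of 4.94. Atf4 and Ddit3, which encode the PERK-arm factors ATF4 and CHOP, had 0 summits within 1 kb. Their nearest summits were 9.23 kb and 9.08 kb after the start, with 44 and 69 reads, and the one at Atf4 was 106 bp from the start of Rps19bp1. The other 4 peaks at Atf4 were 48.5 kb upstream (40 reads, 6.36-fold) and 18.3, 22.0 and 49.0 kb after the start, with 113, 184 and 291 reads and 16.2-, 30.6- and 16.4-fold enrichment, the last in an intron of Cacna1i. Ddit3 had 1 more, 30.5 kb upstream with 36 reads (6.83-fold). Creb3l3, a liver and gut factor, had its nearest summit 21.2 kb upstream, with 119 reads. Atf3 and Creb3l2 had 0 summits within 50 kb, the nearest being 94.5 kb and 238 kb from the gene. Creb3l1 had 10, the most of the 45 genes, and 9 of them lay past its 3′ end, 58.9 to 90.6 kb from its start. The highest of these, at chr2:91793385-91794623, held 341 reads with a fold enrichment of 57.0, and its nearest start was that of Gm9821. The next held 235 reads (21.4-fold), 65.3 kb after the start.

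The chaperone and co-chaperone genes had a promoter summit at 3 of 11. At Hspa5 (ENSMUSG00000026864.7), which encodes the major ER chaperone BiP, the peak chr2:34627202-34628351 held 69 reads with a fold enrichment of 8.13, and its summit was in the 5′ UTR, 351 bp after the start. It was the only peak within 50 kb of this gene. At Dnajc10 the summit was the nearest of the 14, 22 bp before the gene, with 53 reads and 9.18-fold enrichment. At Dnajc3, whose product p58IPK is a co-chaperone of BiP, the summit was in an intron 577 bp after the start, with 49 reads (5.39-fold). Of the lectin chaperone genes, Calr had its nearest summit 8.31 kb after its start, and Canx had its nearest 56.5 kb after its start. Hyou1 and Dnajb11 had their nearest summits 18.8 kb after and 13.3 kb before the start. Hsp90b1 (GRP94), Hspa13, Dnajb9 and Sdf2l1 had 0 summits within 50 kb. The nearest were 62.1, 450, 58.8 and 75.7 kb from these genes.

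Of the 6 genes for enzymes of disulphide formation, 2 had a promoter summit. Both oxidase genes had a summit within 1 kb, whereas 0 of the 4 isomerase genes (P4hb, Pdia3, Pdia4 and Pdia6) had one there or within 10 kb of the start. Of all genes, 20.1% had a summit within 1 kb and 35.7% within 10 kb, and of CpG-rich genes 33.8% and 49.1%. At Ero1lb (ENSMUSG00000057069.6), the oxidase gene prominent in the pancreas, the peak chr13:12657742-12658995 held 86 reads with a fold enrichment of 10.6, and its summit was in the 5′ UTR, 185 bp after the start. At Ero1l the summit was in an intron 448 bp after the start, with 39 reads (5.41-fold). This split of 6 genes was noticed in the data, depends on how the genes were grouped and was not tested. Dnajc10, a disulphide reductase gene placed with the chaperones, had a promoter summit. In the wider pathway list described below, the isomerase genes Txndc5 and Pdia5 had a summit within 1 kb, and Pdia2 had none. P4hb, which encodes protein disulphide isomerase, had 7 summits within 50 kb, the highest with 236 reads (26.6-fold) and 206 bp from the start of Pcyt2. Pdia6 had 6, the highest with 278 reads (16.9-fold) and in the 5′ UTR of Atp6v1c2, and Pdia4 had 2. The nearest summit to Pdia3 was 124 kb away.

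In ER-associated degradation, promoter summits were found at Edem3 and Derl1, 2 of 9 genes. At Edem3, a mannosidase-like protein gene, the summit was 115 bp upstream with 59 reads and a fold enrichment of 4.34. At Derl1 it was 206 bp upstream with 38 reads and a fold enrichment of 4.72. Derl3 (ENSMUSG00000009092.4), a relative of Derl1 found mostly in secretory tissues, had the strongest peak within 10 kb of the start of any of the 45. The peak chr10:75355746-75358122 covers the start and most of this short gene and held 328 reads with a fold enrichment of 30.8 and an FDR of 6.9%, and 2.0% of all peaks held at least as many reads. Its summit was in an intron 1.25 kb after the start, just outside the window of 1 kb, and the peak itself reached over the start. Derl3 had 6 summits within 50 kb, including 1 of 251 reads (16.5-fold) 10.0 kb after its start and 1 of 230 reads (15.3-fold) 47.3 kb after it, 6 bp from the start of Gm867. The intronic stretch at the summit, chr10:75357373-75357441, is shown because of this signal, a choice made after its values were seen. It held an X-box half-site (capitals) that covered the summit and no full X-box.
Derl3: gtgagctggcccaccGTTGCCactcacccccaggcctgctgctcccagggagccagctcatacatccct

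The ubiquitin ligase gene Syvn1 and its partner Sel1l had 0 summits within 10 kb of their starts. The highest of all 124 peaks, with 363 reads and a fold enrichment of 30.1, lay 42.4 kb upstream of Syvn1 in an intron of Capn1. For Sel1l, the nearest summit was 70.6 kb after the start with 118 reads. At Herpud1, a peak 47.6 kb after the start held 334 reads (43.3-fold). Derl2 and Edem1 each had 1 summit within 50 kb, 19.2 and 27.0 kb upstream with 104 and 41 reads, and the nearest to Edem2 was 173 kb away, with 645 reads (66.1-fold). Of the 10 peaks with the most reads within 50 kb of a member (230 reads or more), 1 was within 10 kb of its start and for 2 the nearest start was that of the member, both at Derl3. The peaks with the most reads were thus mainly nearer to other genes.

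Wfs1 (ENSMUSG00000039474.7), the gene of Wolfram syndrome, which encodes an ER membrane protein of β cells, had 2 summits in its first 10 kb. The peak chr5:37379541-37380872 held 82 reads with a fold enrichment of 9.89 and had its summit in the 5′ UTR, 105 bp after the start. The other was in an intron 3.17 kb after the start, with 95 reads (7.3-fold). A further peak, 40.1 kb upstream, held 169 reads with a fold enrichment of 22.1, and the nearest start to it was that of Jakmip1. The remaining 3 were 20.8 and 35.6 kb upstream and 55.5 kb after the start, with 83, 77 and 51 reads and 13.7-, 6.59- and 6.59-fold enrichment. Creld2, which encodes a secreted ER stress protein, had a summit in an intron 268 bp after its start with 84 reads (8-fold), and another 8.68 kb after it with 108 reads. Manf, the gene of a secreted ER stress protein that protects β cells, had 1 summit within 50 kb, 22.5 kb upstream with 91 reads. Of the translocon genes, Sec61b had a summit in its 5′ UTR, 31 bp after the start, with 56 reads (8.24-fold), and Sec61a1 had its nearest in a coding exon 11.7 kb after the start, with 137 reads.

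Among the 14 promoter summits, chosen for lying within 1 kb of the start, the distance was 22 to 577 bp with a median of 218 bp, against 0 to 1000 bp with a median of 315 bp for the 4572 such gene and summit pairs of all genes. Of the 14, 5 were upstream of the start (35.7%), as were 33.1% of all. A start on the opposite strand lay within 1 kb upstream of 6 members, and Eif2s1 (Atp6v1d), Creld2 (Alg12) and Sec61b (Alg2) among them had a summit. Over all genes with such a divergent partner, 34.4% of 1599 had one.

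At the summits, X-box sequences were as frequent near these genes as in the whole list. In the 200 bp around the summit, a full X-box was present in 8 of the 124 member peaks (6.45%, interval 3.31 to 12.2%) and in 6.44% of all peaks, and 1 kb away in 0 of the 124 (interval up to 3.00%) and in 0.253% of all. A single half-site was present in 62.9% of the member peaks (interval 54.1 to 70.9%) and in 60.9% of all peaks, against 24.2% and 24.7% in the windows 1 kb away. For the 14 promoter peaks these counts were 2 with a full X-box and 10 with a half-site, against 0 and 8 of 14 in their windows 1 kb away. Of 4151 peaks within 1 kb of any start, 5.78% had a full X-box and 48.2% a half-site. With 14 peaks the intervals are wide (4.01 to 39.9% and 45.4 to 88.3%) and contain both shares. A half-site is part of each full X-box.

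**Figure D4:**
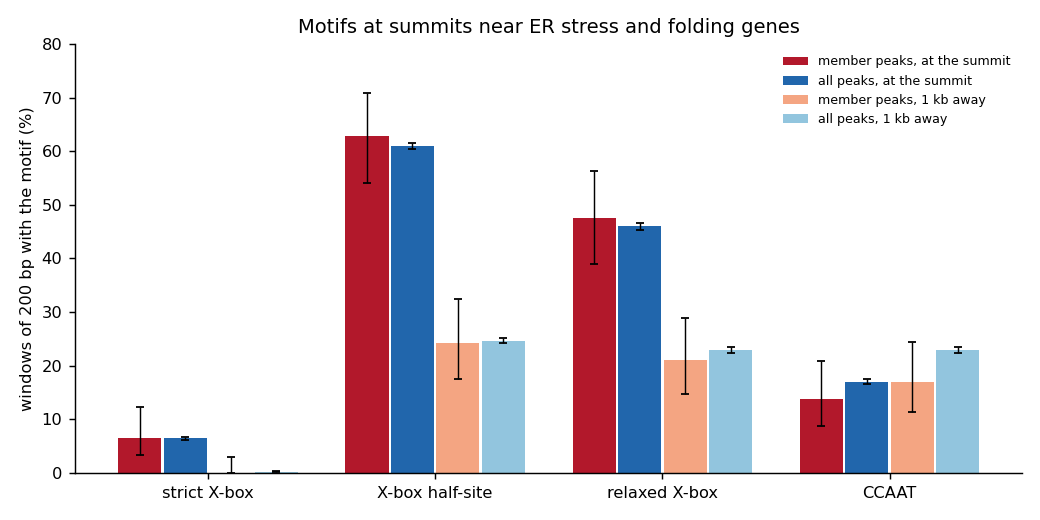
Percent of 200 bp windows with each motif, at the summit and 1 kb away, for the 124 peaks within 50 kb of a member and for all 23308 peaks. Error bars are 95% Wilson intervals, and the strict X-box is the full X-box of the text. The relaxed X-box is a looser pattern that allows a purine or a pyrimidine at most positions but does not match every full X-box. Bars of member peaks and of all peaks differ by less than the member intervals for the X-box patterns at the summit.

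The other full X-boxes at member summits were distal, and they are shown because they complete the 8 member peaks that matched this pattern. Matches were not scored or ranked. The peak at Xbp1 was 49.0 kb after its start and 57 bp from the start of Ankrd36, with 75 reads and a fold enrichment of 14.1. The peak at Eif2s1 was 45.9 kb after its start and 794 bp from the start of Plek2, with 176 reads. At Ppp1r15b, the peaks were 20.4 kb (35 reads) and 57.0 kb (129 reads) after the start, and at Pdia6 the peak was 38.4 kb upstream with 84 reads. In the peak of 334 reads at Herpud1, the summit lay inside the X-box. The stretches are chr11:5469651-5469686, chr12:80008734-80008786, chr1:135048000-135048052, chr1:135084722-135084775, chr12:17234878-17234931 and chr8:96957862-96957915, in the order of the sequences, with the X-box in capitals.
Xbp1, distal: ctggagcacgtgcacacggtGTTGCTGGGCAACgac
Eif2s1, distal: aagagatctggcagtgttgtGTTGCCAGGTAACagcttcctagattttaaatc
Ppp1r15b, first: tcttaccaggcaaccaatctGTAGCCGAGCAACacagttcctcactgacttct
Ppp1r15b, last: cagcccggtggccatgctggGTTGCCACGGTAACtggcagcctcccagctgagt
Pdia6, distal: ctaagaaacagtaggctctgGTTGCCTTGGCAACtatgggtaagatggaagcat
Herpud1, distal: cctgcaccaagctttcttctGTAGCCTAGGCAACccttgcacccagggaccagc

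Other promoter peaks of these genes had no full X-box. Among promoter peaks without one whose 101 bases around the summit lay outside exons, those with the most reads were at Edem3, Dnajc3 and Trib3. Their sequences are shown for contrast with Dnajc10 and Derl1, with the summit base in capitals and, at Trib3, also the half-site 43 bp from it. They cover chr1:153602339-153602439, chr14:119337681-119337781 and chr2:152170160-152170260. Neither the Edem3 nor the Dnajc3 stretch held a half-site.
Edem3: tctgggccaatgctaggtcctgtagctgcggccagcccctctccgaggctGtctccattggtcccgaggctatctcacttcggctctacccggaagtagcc
Dnajc3: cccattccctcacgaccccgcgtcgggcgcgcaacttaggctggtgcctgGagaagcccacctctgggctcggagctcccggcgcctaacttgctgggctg
Trib3: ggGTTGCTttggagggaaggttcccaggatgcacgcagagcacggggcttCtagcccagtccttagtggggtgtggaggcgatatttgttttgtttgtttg

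The ER stress element is the sequence through which ATF6 and Xbp1 act together with NF-Y, made of CCAAT, 9 bases and CCACG. In the promoters from 250 bases before to 50 after the start, it was present in 9 of the 45 genes (20%), namely Hsp90b1, Calr, Canx, Pdia6, Ero1lb, Dnajc3, Syvn1, Derl3 and Creld2, and in 22 of all 22367 promoters (0.0984%). Among CpG-rich promoters, 0.132% held the element. Only exact matches in this window around the start of the gene record were counted, and Hspa5 had none. Elements with a changed base or outside this window would have been missed. The element was at 0 of the 124 member summits. Of the 9 genes, Ero1lb, Dnajc3 and Creld2 had a summit within 1 kb. At Derl3 the summit was in an intron, 1.25 kb after the start. The interval of that peak, chr10:75355746-75358122, nevertheless held the element of Derl3, at chr10:75355987-75356005. Another 4 (Hsp90b1, Canx, Pdia6 and Syvn1) had 0 summits within 10 kb. The elements of the former 3 are shown to set them beside the peaks, on the strand of the gene, with the CCAAT and CCACG parts, or their complements ATTGG and CGTGG, in capitals. They lie 368, 664 and 376 bp from the summits, within the interval of the peak at Ero1lb and Creld2 and outside it at Dnajc3.
Ero1lb: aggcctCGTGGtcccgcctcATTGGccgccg
Dnajc3, element: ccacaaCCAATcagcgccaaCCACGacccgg
Creld2: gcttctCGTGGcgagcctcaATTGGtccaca

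These stretches are chr13:12657943-12657973, chr14:119337043-119337073 and chr15:88649944-88649974. The CCAAT sequence alone, which is part of the element, was in 30 of the 45 promoters (66.7%), in 37.9% of all and in 37.4% of CpG-rich ones. It was present in 7 of the 14 promoters with a summit within 1 kb and in 23 of the 31 without. A full X-box was in the promoters of Dnajc10 and Derl1 (2 of 45, 4.44%), in 1.31% of all and in 1.63% of CpG-rich ones. None of these promoter shares was tested.

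A further 66 genes of the pathway were listed, of which 64 were found in the annotation. Within 1 kb of the start, 22 of the 64 had a summit (34.4%, interval 23.9 to 46.6%), within 10 kb 32 (50.0%) and within 50 kb of the gene 56 (87.5%). The median of their highest promoter peaks was 81.5 reads, and 11 of the 22 held at least 73 reads, against 4 of the 14 for the members. The 5 with the most reads were Txndc5 (172 reads, 871 bp after the start), a disulphide isomerase gene, Ssr2 (122 reads), which encodes a subunit of the translocon-associated complex, Ddost (121 reads), a subunit gene of the oligosaccharyltransferase, Dnajc1 (120 reads), a co-chaperone gene, and Pdia5 (102 reads), another isomerase gene. Whether the wider list and the 45 genes differ was not tested.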

How the data were processed

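The anti-HA ChIP-seq data of 1 3HA-Rfx6 library and 1 control library of Min6b1 cells were used through the single peak list of the authors. Reads were single-end with 50 bases, from libraries amplified over 14 PCR cycles. Bowtie and the build mm9 are named in the submitters' processing notes, and the header of the list names MACS 1.4.2 with a p-value cutoff of 1e-05, a band width of 300 bp, a genome size of 1870000000 and at most 1 read per position. The deposited counts are reads of the 3HA-Rfx6 library in each peak, without normalization. The deposited fold enrichment is a ratio to a background set by MACS, for which regions of 1 kb and 10 kb around the peak were considered. The score the authors deposited is -10log10 of the MACS p-value. The deposited FDR is in percent. The control's own signal was not analysed here.

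Summits (start + summit - 1) were compared with gene records of GENCODE M1, mitochondrial genes excepted, and the 5′ end of the record was the start. Every peak lay within the mm9 chromosome lengths. Genes were classed by length (bounds of 10, 30 and 100 kb) and by promoter CpG content. The relaxed X-box allows a purine or pyrimidine at most positions of both half-sites, around 1 to 3 bases. It does not include every full X-box, and the peak at Herpud1 with a full X-box did not match it. All motifs were searched on both strands. With 1 library per condition, no test was made, and shares are descriptions. Members and lists were chosen with earlier results of these data known. Every member was named, with peak values for members with a summit within 1 kb, the 10 peaks with the most reads, members with no summit within 50 kb and 8 central genes, and the 5 other pathway genes with the most promoter reads. On simulated data, 100% of 200 planted summits and of 400 planted X-boxes were found. Python 3.11.15, numpy 2.4.6, pandas 2.3.3 and matplotlib 3.10.9 were used.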

Additional observations from a re-analysis of the deposited data

How the results depend on the processing

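No paired analysis was possible because each condition has a single library, which also leaves no replicate to omit. With the 50% of peaks with the highest score, 4 members had a summit within 1 kb of the start (11.7% of all genes) and 6 within 10 kb (21.6%), and with the 50% with the most reads also 4 and 6. With a fold enrichment of at least 10, the counts were 2 within 1 kb (8.65% of all genes), 4 within 10 kb (17.2%) and 23 within 50 kb (45.6%). An FDR of at most 1% left 10 peaks and 0 members in each window. The lowest FDR of any member peak was 1.76%. Because a lower FDR did not mean more reads in this list, this cutoff does not select stronger peaks. Within 50 kb, 21 members were counted when a peak went only to the nearest start (42.0% of all genes), and 12 when the summit had to lie inside the gene (31.3%). In the sets of higher score, reads or fold enrichment, the member share within 1 kb and 10 kb fell below that of all genes. With at least 73 reads, the 10 kb share of CpG-rich genes (30.5%) also lay above the member interval (6.26 to 26.2%). The median of the highest peak was 116 reads within 50 kb of the gene, against 57.5 within 10 kb of the start. The relaxed X-box was at 45% of member summits within 10 kb and the full X-box at 10.0%, which is 2 of 20 peaks. Of all peaks within 10 kb of a protein-coding start, 42.8% had the relaxed and 5.55% the full X-box. The full X-box was at 6.45% of member summits within 50 kb of the gene, inside the interval of the 10.0%. The other alternatives kept each count of members within 1.5 times. The effect of the shallow control on weak peaks such as that at Xbp1 was not tested, and regions below the p-value cutoff are not listed, so that an ER gene without a peak was without detectable binding at this depth only.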
